A study of Mus musculus with 16 samples.

Results

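The 10 genes described here are mouse genes commonly used as marks of alternatively activated macrophages: Il4ra, Mrc1, Clec10a, Mgl2, Cd209a, Arg1, Retnla, Ccl17, Ccl24 and Pdcd1lg2. They were taken by symbol from the 33269 gene names on a 1-colour Agilent mouse array, and all 10 had at least 1 probe. Where a gene had more than 1 probe, the one with the highest mean signal over the 16 arrays stood for it. The arrays came from a study of stem cell therapy in cirrhotic mice, with 4 groups of 4 arrays. The inflammatory cell ADSC group held the cells recovered from livers of female C57Bl/6 mice kept for 40 weeks on an atherogenic, fat-rich diet and then given adipose tissue-derived stem cells (ADSC). The inflammatory cell PBS group held the same fraction from mice on the same diet given phosphate-buffered saline (PBS). The liver ADSC and liver PBS groups held whole liver of mice treated in the same ways, so both treatments and both sample types share the diet and the cirrhosis, and no group without cirrhosis is used here. The ADSC were cultured from inguinal fat of GFP-transgenic mice, and 100000 cells were injected under the spleen capsule on each of 2 occasions. Tissue was collected 2 weeks after the last injection. The labels do not say that each array stands for a separate animal, so p-values measure the spread between these samples. The labels' extraction protocol speaks of a tumor-infiltrating fraction and of blood, so the way the hepatic inflammatory cells were obtained cannot be read from it.

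Alternative activation is the macrophage programme driven by the type 2 cytokines interleukin-4 (IL-4) and interleukin-13 (IL-13). Both signal through receptors that contain the Il4ra chain, which activates JAK kinases and the transcription factor STAT6, and STAT6 in turn binds the promoters of genes such as Retnla and Ccl17. Several of these transcripts are not restricted to macrophages in liver. Arg1 is a urea cycle enzyme of hepatocytes, Mrc1 is also made by sinusoidal endothelium, and the lectins Clec10a, Mgl2 and Cd209a and the ligand Pdcd1lg2 are shared with dendritic cells. In bulk samples such as these, fewer cells of a type and less RNA per cell cannot be told apart.

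Promoter sequence is shown for 4 members, because STAT6 recognises a short palindrome, TTCNNNNGAA, and because a shorter one, TTCNNNGAA, is the general STAT site. The RefSeq promoter table (GRCm38.p6, 250 bases before to 50 bases after the gene start) held 7 of the 10 members, and Arg1, Clec10a and Ccl24 are named only. Of the 7, 3 held TTCNNNNGAA, against 6.95% of 32851 promoters of the same length, and 1 held TTCNNNGAA, against 8.30%. Both motifs read the same on either strand, so 1 scan covers both strands, and the hits did not overlap. In Retnla (chr16:48842359-48842658, plus strand) the match began 145 bases before the gene start. In Ccl17 (chr8:94810203-94810502, plus strand) the longer match began 154 bases and the shorter match 99 bases before the start. In Pdcd1lg2 (chr19:29410669-29410968, plus strand) it began 82 bases before the start. Mrc1 (chr2:14229164-14229463, plus strand) held neither in this window and is printed for comparison. Capitals mark the matches, which are letters in a window and not measured binding sites.
Retnla: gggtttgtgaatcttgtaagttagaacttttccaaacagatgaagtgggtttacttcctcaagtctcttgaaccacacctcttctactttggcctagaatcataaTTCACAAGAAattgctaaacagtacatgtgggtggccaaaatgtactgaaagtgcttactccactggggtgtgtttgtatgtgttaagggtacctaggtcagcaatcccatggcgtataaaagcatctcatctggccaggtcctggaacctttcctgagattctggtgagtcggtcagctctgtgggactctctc
Ccl17: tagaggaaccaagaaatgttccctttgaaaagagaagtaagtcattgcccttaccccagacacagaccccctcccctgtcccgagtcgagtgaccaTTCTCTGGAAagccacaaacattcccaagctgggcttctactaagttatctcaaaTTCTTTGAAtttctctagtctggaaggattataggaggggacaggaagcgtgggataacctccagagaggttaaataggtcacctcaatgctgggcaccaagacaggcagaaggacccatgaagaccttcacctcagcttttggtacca
Pdcd1lg2: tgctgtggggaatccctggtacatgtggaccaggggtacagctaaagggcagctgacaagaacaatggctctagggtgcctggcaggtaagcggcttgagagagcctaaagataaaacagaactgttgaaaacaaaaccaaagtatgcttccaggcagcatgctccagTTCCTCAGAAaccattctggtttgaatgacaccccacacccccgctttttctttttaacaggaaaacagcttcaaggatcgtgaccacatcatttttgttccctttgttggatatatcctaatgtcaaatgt
Mrc1: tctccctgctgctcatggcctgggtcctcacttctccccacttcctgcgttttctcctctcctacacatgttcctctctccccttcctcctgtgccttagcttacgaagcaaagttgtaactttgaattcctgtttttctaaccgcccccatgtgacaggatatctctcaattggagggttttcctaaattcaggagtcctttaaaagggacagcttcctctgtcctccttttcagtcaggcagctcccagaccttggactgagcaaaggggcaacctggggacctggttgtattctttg

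Levels are log2 signal relative to the 75th percentile of the array's own probes, so a level of 0 equals that percentile and a difference of 1 is a 2-fold difference in signal. Levels of different genes come from different probes and are not compared. Between 51.6% and 66.4% of spots per array were marked well above background by the scanner software, and the 75th percentile lay between 123.4 and 552.8 units of signal. Correlations between arrays of a group lay between 0.940 and 0.974 in inflammatory cells and between 0.958 and 0.982 in liver. The arrays sat on 5 slides scanned on 3 days, and both slides and scan days mixed sample types. Treatments were spread unevenly over the slides. For inflammatory cells, slides 2 and 3 each held 1 ADSC and 1 PBS array. Slide 4 held ADSC 9 and 10 only, and slides 1 and 5 held PBS 14 and PBS 13. For liver, only slide 2 held both treatments, 1 array of each. With the slide as a fixed block, each ADSC against PBS fit rests on these shared slides alone. The 12 hepatocyte markers averaged -1.40 to 1.48 on the inflammatory cell arrays and 5.13 to 6.33 on the liver arrays, as the sample labels would have it. The 10 exocrine pancreas markers, however, averaged 8.67 in inflammatory cells ADSC 10, and 6.55 and 8.75 in inflammatory cells PBS 11 and 13. On the other inflammatory cell arrays they averaged -1.75 to 2.60, and on liver arrays -5.05 to -3.95. These 3 pancreas-rich arrays stand apart from their groups, and values without them are given below where they bear on a member. Leaving them out keeps inflammatory cells ADSC 7, 8 and 9 against PBS 12 and 14, so such a fit rests on fewer arrays.

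The first comparison asked whether stem cell treatment went with a different level of the alternative activation genes in the inflammatory cells. None of the 9 members tested passed limma's test at an adjusted p of 0.05, in a comparison in which 1.19% of the 20165 genes tested passed. At an unadjusted p under 0.05 there were 3 members, Mrc1, Retnla and Ccl24, against 18.5% of all genes. The 3 estimates did not share a direction: Retnla stood 4.36-fold above PBS, Mrc1 2.22-fold below it and Ccl24 1.92-fold below it. The median log2 difference was -0.08 over the 9 members and 0.03 over all genes, and 6 of the 9 estimates were negative, against 47% of all genes. The group means of one member could not be tested, because Cd209a was well above background on only 1 of the 8 arrays. Leaving out each array in turn gave 0 members passing every time. Without the 3 pancreas-rich arrays 0 of 18769 genes passed, and with the slide as a fixed block 0 of 20165. A count of 0 members in either setting therefore says nothing particular to the members. Every call of the main fit was lost there, whatever the gene.

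**Figure D1:**
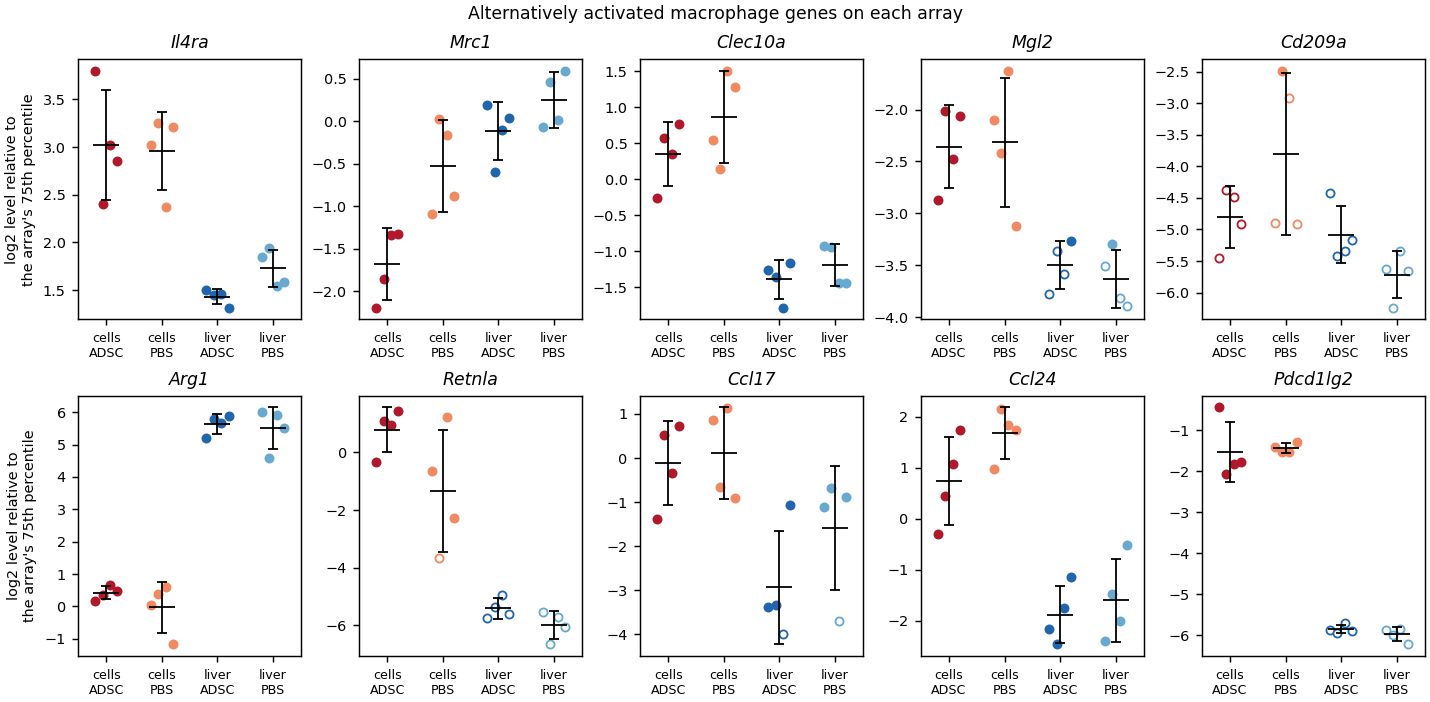
Log2 level relative to the array's 75th percentile (y axis) of each of the 10 members on every array, in inflammatory cells ADSC, inflammatory cells PBS, liver ADSC and liver PBS from left to right. Filled points were well above background and open points were not, and bars give the mean and SD of 4 arrays. All 4 Mrc1 points of inflammatory cells ADSC lie below the 4 of inflammatory cells PBS, and Arg1 and Mrc1 have higher means in liver than in inflammatory cells.

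Il4ra, the shared receptor chain for IL-4 and IL-13 (probe A_51_P464478), had levels of 3.80, 2.40, 3.03 and 2.86 in inflammatory cells ADSC 7 to 10, against 3.02, 3.26, 2.37 and 3.21 in inflammatory cells PBS 11 to 14. The groups overlapped almost completely, and ADSC 7 was the highest array. The log2 difference was 0.06 ± 0.32 (SE of the fit, 4 arrays a group; limma, adjusted p = 0.948), with a 95% interval of -0.65 to 0.77.

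Mrc1, the mannose receptor CD206 and the member with the clearest separation (probe A_51_P439248), had levels of -2.19, -1.85, -1.34 and -1.33 in inflammatory cells ADSC 7 to 10, against -1.09, 0.03, -0.16 and -0.88 in inflammatory cells PBS 11 to 14. Every ADSC array lay below every PBS array, a pattern found in 6.65% of all genes tested. The mean was -1.68 ± 0.42 with ADSC and -0.53 ± 0.54 with PBS (SD, n = 4 each), a log2 difference of -1.15 ± 0.31 that did not pass over all genes (limma, adjusted p = 0.119). The difference was -1.49 on scan day 2, with 2 arrays against 2, and -1.17 on scan day 3, with 2 against 1. It passed in 2 of the alternative fits, with slide as a random block (-1.31, adjusted p = 0.0373) and with all 16 arrays sharing 1 estimate of the spread (-1.15, adjusted p = 0.0352). With the slide as a fixed block, with the scan day as a term and without the pancreas-rich arrays it did not. Over the 12 alternatives apart from leaving out 1 array, the Mrc1 difference lay between -1.49 and -0.57.

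Clec10a and Mgl2 are the neighbouring galactose-type lectins CD301a and CD301b. Clec10a (probe A_51_P141413) had levels of -0.26, 0.58, 0.35 and 0.76 in inflammatory cells ADSC 7 to 10, against 0.54, 0.14, 1.51 and 1.28 in inflammatory cells PBS 11 to 14. ADSC 7 was the lowest array and PBS 13 the highest, and the groups overlapped (difference -0.51 ± 0.34, limma, adjusted p = 0.435). Mgl2 (probe A_52_P414065) had levels of -2.88, -2.02, -2.48 and -2.06 in inflammatory cells ADSC 7 to 10, against -2.10, -2.41, -1.63 and -3.12 in inflammatory cells PBS 11 to 14. The PBS arrays held both the highest and the lowest Mgl2 level (difference -0.04 ± 0.33, limma, adjusted p = 0.965). The paralogs are similar in sequence, so a short probe for one may bind transcripts of the other.

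Cd209a, a C-type lectin of dendritic cells related to human DC-SIGN (probe A_51_P133884), was well above background on 0 of 4 ADSC arrays and on 1 of 4 PBS arrays. That array, PBS 12, had a level of -2.49, while the other 7 lay between -5.46 and -2.91. No fold is given for it.

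Arg1, the enzyme that splits arginine into ornithine and urea (probe A_51_P303160), had levels of 0.18, 0.36, 0.68 and 0.48 in inflammatory cells ADSC 7 to 10, against 0.04, 0.39, 0.60 and -1.16 in inflammatory cells PBS 11 to 14. PBS 14 was low and the other 7 arrays fell within a narrow band. The log2 difference was 0.46 ± 0.35 (limma, adjusted p = 0.503), and 0.08 without PBS 14. The mean of the hepatocyte markers was -0.24 to 1.48 on the ADSC arrays, against -0.35 to -0.26 on PBS 11 to 13 and -1.40 on PBS 14, with 10 of 10 tested markers estimated higher with ADSC and 0 passing. PBS 14 was lowest for both the hepatocyte mean and Arg1. ADSC 8 had the highest hepatocyte mean and an Arg1 level of 0.36. The part of hepatocyte RNA in the Arg1 level was not tested.

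Retnla encodes RELM-alpha (FIZZ1), a secreted protein strongly induced by IL-4 in mouse macrophages (probe A_51_P257951). Its levels were -0.34, 1.07, 0.94 and 1.45 in inflammatory cells ADSC 7 to 10, against -0.65, -3.68, 1.21 and -2.27 in inflammatory cells PBS 11 to 14. The PBS arrays split, with 12 and 14 far below the rest, and PBS 12 was not well above background. PBS 13 lay among the ADSC arrays. The mean was 0.78 ± 0.78 with ADSC and -1.35 ± 2.11 with PBS (SD, n = 4 each), a log2 difference of 2.12 ± 0.86 (limma, adjusted p = 0.235). A second Retnla probe, A_52_P254817, gave 2.01 ± 0.81. Leaving out 1 array gave a difference of 1.35 (without PBS 12, the array at background) to 2.98 (without PBS 13). Within scan days the value was 2.53 on day 2 and -0.02 on day 3, where the only PBS array was PBS 13. PBS 11 and 13 are also the pancreas-rich arrays of their group, and without the 3 such arrays the difference was 3.53 ± 0.57 (adjusted p = 0.137). What the pancreas transcripts have to do with Retnla was not tested.

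Ccl17 and Ccl24 are chemokines released by IL-4-treated macrophages: Ccl17 attracts T cells that carry CCR4, and Ccl24 (eotaxin-2) attracts eosinophils through CCR3. Ccl17 (probe A_51_P114462) had levels of -1.37, 0.53, -0.33 and 0.72 in inflammatory cells ADSC 7 to 10, against 0.86, -0.65, 1.14 and -0.90 in inflammatory cells PBS 11 to 14. The 3 highest Ccl17 levels were those of the 3 pancreas-rich arrays, ADSC 10, PBS 11 and PBS 13. The log2 difference was -0.23 ± 0.56 over all 8 arrays (limma, adjusted p = 0.867) and 0.38 ± 0.53 without those 3 (adjusted p = 0.681), and what the pancreas transcripts have to do with it was not tested. The sign also turned on leaving out a single array, with 0.19 without ADSC 7, 0.0239 without PBS 11 and 0.12 without PBS 13. Ccl24 (probe A_52_P18116) had levels of -0.29, 0.45, 1.07 and 1.74 in inflammatory cells ADSC 7 to 10, against 0.97, 2.15, 1.85 and 1.74 in inflammatory cells PBS 11 to 14. ADSC 7 and 8 lay below all PBS arrays, and ADSC 9 and 10 fell among them. The mean was 0.74 ± 0.87 with ADSC and 1.68 ± 0.50 with PBS (SD, n = 4 each), a log2 difference of -0.94 ± 0.42 (limma, adjusted p = 0.262), and a second Ccl24 probe, A_51_P322640, gave -0.999 ± 0.434. Without ADSC 7 the difference was -0.59.

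Pdcd1lg2, the PD-1 ligand PD-L2 (probe A_51_P383448), had levels of -0.45, -2.06, -1.82 and -1.78 in inflammatory cells ADSC 7 to 10, against -1.40, -1.54, -1.54 and -1.28 in inflammatory cells PBS 11 to 14. ADSC 7 was the highest array and the other 3 ADSC arrays lay below all PBS arrays. The log2 difference was -0.08 ± 0.33 (limma, adjusted p = 0.921), and -0.45 without ADSC 7.

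**Figure D2:**
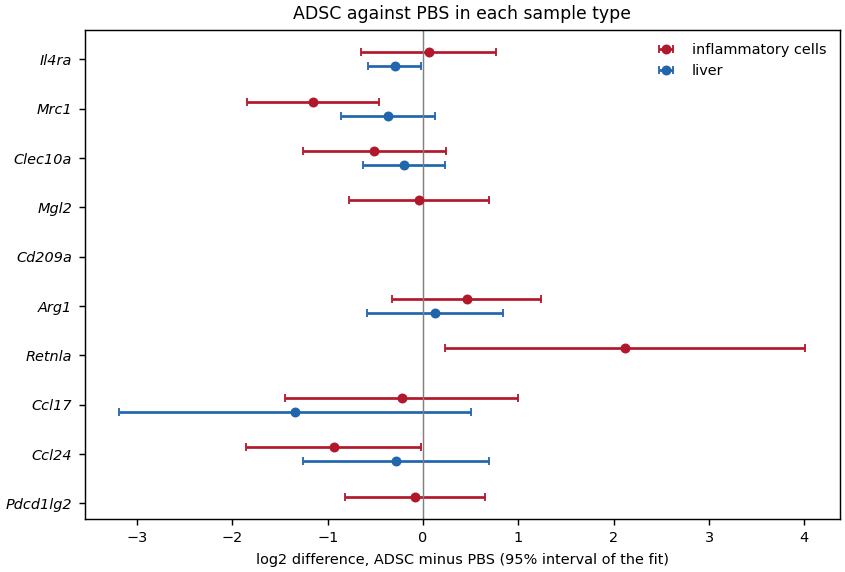
Log2 difference, ADSC minus PBS (x axis), of each member that was tested, in inflammatory cells (upper, red) and in liver (lower, blue), with the 95% interval of the fit over 4 arrays against 4. The intervals of Mrc1, Retnla and Ccl24 in inflammatory cells and of Il4ra in liver leave out 0, and none of them passed after adjustment over all genes.

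Of the other genes of the pathway, Il13ra1 alone passed. It encodes the chain that pairs with Il4ra to form the receptor for IL-13. Il13ra1 had levels of -1.57, -0.66, -1.18 and -0.93 in inflammatory cells ADSC 7 to 10, against 0.23, 0.68, 0.78 and -0.01 in inflammatory cells PBS 11 to 14. No ADSC array reached the lowest PBS array, and the level fell 2.84-fold (log2 difference -1.5 ± 0.27, limma, adjusted p = 0.027). The other 16 of the 17 tested genes of the IL-4 and IL-13 pathway list did not pass, with a median over the list of 0.16. They include both cytokines and the transcription factor: Il4 averaged -1.56 ± 0.43 with ADSC and -1.41 ± 0.26 with PBS, Il13 -2.39 ± 0.28 and -2.61 ± 0.42, and Stat6 0.39 ± 0.16 and 0.32 ± 0.33 (SD, n = 4 each). The Il13ra1 call was lost, with the value staying between -1.67 and -1.02, in 10 of 20 alternatives, among them the slide as a fixed block (adjusted p = 0.0971), the mean of the gene's probes (0.0926), leaving out the pancreas-rich arrays (0.137) and leaving out PBS 12 (0.104), PBS 13 (0.0511), ADSC 9 (0.1) or ADSC 10 (0.0726).

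A second list held 20 further genes used as marks of alternative activation, of which 17 were tested, 0 rose and 2 fell. These were the chitinase-like genes Chil3 (Ym1) and Chil4 (Ym2). Chil3 had levels of 4.01, 5.00, 4.66 and 4.28 in inflammatory cells ADSC 7 to 10, against 7.12, 8.51, 8.34 and 7.77 in inflammatory cells PBS 11 to 14, a 10.9-fold fall (-3.45 ± 0.34, limma, adjusted p = 0.00251). Chil4 fell 16.0-fold (-4.00 ± 0.38, adjusted p = 0.00251), and its ADSC arrays lay between 1.14 and 1.54 while its PBS arrays lay between 4.32 and 6.44. Neither group pair overlapped. The paralogs are near-identical, so their probes may read each other's transcripts. Chil3 is also abundant in mouse neutrophils and their precursors, and 10 of the 12 neutrophil markers fell in the same comparison, with a median of -4.16. The neutrophil list averaged 1.01 to 1.86 on the ADSC arrays and 4.18 to 6.11 on the PBS arrays, and its part in the Chil3 and Chil4 values was not tested. Both calls were lost with the slide as a fixed block (adjusted p = 0.0827 and 0.0801) and without the pancreas-rich arrays (0.137 and 0.111), and held without any single array. The estimates were -3.31 and -4.01 with the slide as a fixed block, and -3.58 and -4.39 without the pancreas-rich arrays. The median over the list was -0.59.

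Classical activation, the programme driven by interferon gamma and bacterial products, was counted in the same way. Of 17 tested genes of classical activation, 0 rose and 2 fell, the formyl peptide receptor Fpr2 (-2.51 ± 0.36, limma, adjusted p = 0.0107) and the cytokine Il1b (-1.93 ± 0.35, 0.0261), with a median of -0.17. The part of neutrophils in the Fpr2 and Il1b values was not tested either. The Il1b call was lost on leaving out PBS 11, PBS 12, ADSC 8, ADSC 9 or ADSC 10 (adjusted p between 0.0577 and 0.0933), and both calls with the slide as a fixed block or without the pancreas-rich arrays. Nos2, the enzyme that competes with Arg1 for arginine, was not well above background on any of the 16 arrays. Among 7 tested genes of arginine and urea cycle metabolism, 1 fell: Arg2, the mitochondrial arginase, averaged 0.02 ± 0.40 with ADSC and 1.96 ± 0.68 with PBS (SD, n = 4 each; -1.93 ± 0.35, limma, adjusted p = 0.0264). Its call was lost on leaving out any array other than ADSC 7 or PBS 14 (adjusted p up to 0.0964), and without the pancreas-rich arrays (0.138).

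Cell type markers moved beside these values. All 12 macrophage and monocyte markers had negative estimates, against 47% of all genes, with a median of -0.99. Of these markers 3 fell: Cd14 (-1.98 ± 0.33, limma, adjusted p = 0.0202), Fcgr1 (-1.53 ± 0.27, 0.0246) and Cd300a (-1.01 ± 0.18, 0.0277). The mean level of the 12 was 1.51, 1.85, 1.84 and 1.94 in inflammatory cells ADSC 7 to 10, against 2.72, 2.99, 2.69 and 2.82 in inflammatory cells PBS 11 to 14. These means did not overlap between treatments, and they differed by -1.02. The Kupffer cell list, markers of the resident liver macrophage, had a median of -1.28 over 10 genes, of which Slc40a1 and Cd5l fell, and averaged -0.11 to 1.26 with ADSC and 1.42 to 2.33 with PBS. Each of these 5 calls was lost with the slide as a fixed block, with the scan day as a term, without the pancreas-rich arrays, and on leaving out PBS 12 or ADSC 9 (adjusted p between 0.0582 and 0.141), while the estimates stayed negative. Leaving out PBS 13, PBS 14, ADSC 8 or ADSC 10 ended some of them too, as did leaving out PBS 11 for Cd300a and ADSC 7 for Cd5l. The sinusoidal endothelium list, whose cells also make Mrc1, averaged -1.49 to -0.28 with ADSC and -0.91 to -0.40 with PBS, with 0 of 11 tested genes passing. The part of any of these cell types in the Mrc1 and Il13ra1 values was not tested.

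**Figure D3:**
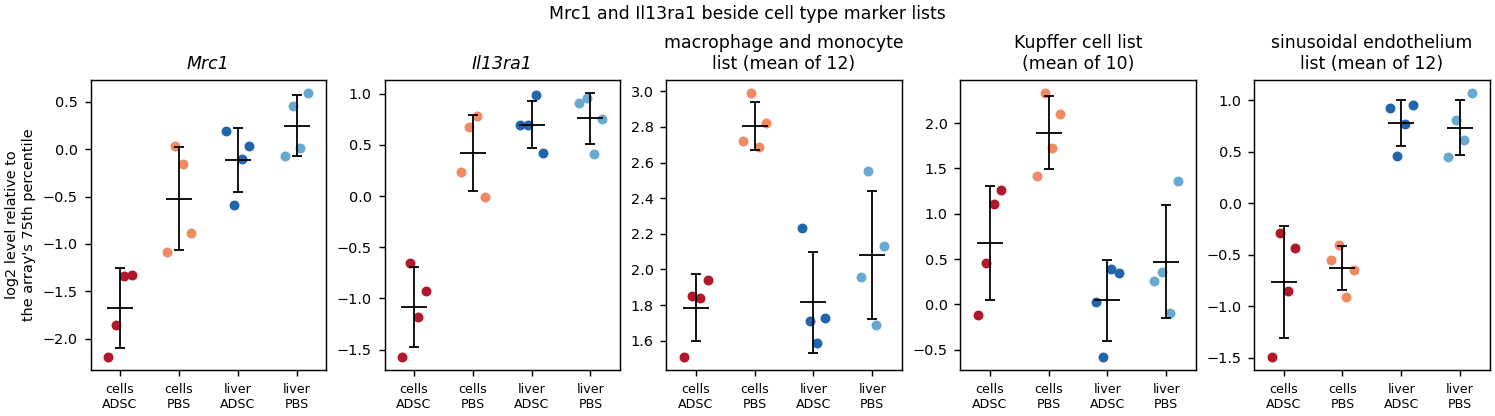
Log2 level relative to the array's 75th percentile (y axis) of Mrc1 and Il13ra1 and the mean level of 3 cell type lists, 1 point per array, with the mean and SD of 4 arrays. In inflammatory cells, the ADSC points of Mrc1, Il13ra1, the macrophage and monocyte list and the Kupffer cell list lie below all PBS points, and those of the sinusoidal endothelium list overlap them.

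The list of eosinophil, basophil, mast cell and type 2 lymphoid markers covers targets of Ccl24 and sources of IL-4. It had 12 tested genes, of which 0 rose. Prg2 and Mcpt8 fell, in a comparison in which 1.19% of all genes tested passed. Siglecf is set apart from them, because it entered only through the PBS arrays. Over the 12 the median was -0.27, and 6 estimates were negative. Siglecf, a lectin of mouse eosinophils, was well above background on 0 of 4 ADSC arrays and 4 of 4 PBS arrays, and was at least 3.98-fold lower with ADSC. It entered the test only through the PBS arrays, where it was high. Its test sets a signal against background values, so no call is drawn from it. The measured means were -3.95 ± 0.61 with ADSC and -1.18 ± 0.81 with PBS (SD, n = 4 each). Prg2, the eosinophil major basic protein, had levels of -0.05, -0.83, -1.29 and -2.67 in inflammatory cells ADSC 7 to 10, against 1.72, 4.10, 1.01 and 3.39 in inflammatory cells PBS 11 to 14 (-3.77 ± 0.70, adjusted p = 0.0298). Mcpt8, a basophil protease, fell 5.23-fold (adjusted p = 0.0198). For Prg2 and Mcpt8 every ADSC array lay below every PBS array, as in 6.65% of all genes tested. No alternative turned the sign of Prg2, Mcpt8 or Siglecf. The Siglecf difference was -0.82 with normexp background correction. The Prg2 call was lost on leaving out PBS 12, PBS 14, ADSC 8, ADSC 9 or ADSC 10, and the Mcpt8 call on leaving out PBS 13 or ADSC 9. Both calls were lost with the slide as a fixed block or without the pancreas-rich arrays.

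The remaining lists had no passing gene in this comparison. The medians were -0.23 over 14 dendritic cell genes, 0.93 over 10 hepatocyte genes, 1.00 over 7 B cell genes, -0.02 over 6 T cell genes, -2.99 over 10 exocrine pancreas genes and 0.41 over 5 adipose and mesenchymal genes. Dendritic cells share Clec10a, Mgl2, Cd209a, Ccl17 and Pdcd1lg2 with macrophages, and their list averaged 0.50 to 0.79 with ADSC and 0.51 to 0.91 with PBS. The B cell list averaged 1.55 to 2.35 with ADSC and 0.22 to 1.34 with PBS, without overlap, and 0 of its 7 estimates were negative.

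In whole liver, 6 members were tested and none passed limma's test, where 0% of 17321 genes passed. At an unadjusted p under 0.05 there was 1 member, Il4ra, against 4.64% of all genes. Retnla, Pdcd1lg2 and Cd209a were well above background on 0 of 8 liver arrays, and Mgl2 on 1 ADSC array and 1 PBS array, so these 4 were not tested. The estimates of 5 of the 6 were negative, against 39.8% of all genes, and the median was -0.29, against 0.04 over all genes.

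Il4ra had levels of 1.5, 1.45, 1.46 and 1.32 in liver ADSC 7 to 10, against 1.85, 1.94, 1.54 and 1.59 in liver PBS 11 to 14. Every ADSC array lay below every PBS array, as 1.21% of all genes did, by a small margin (-0.30 ± 0.12, limma, adjusted p = 0.998). On scan day 2, the only day with both groups, the difference was -0.07, with 2 arrays against 1, and the lowest PBS array was the one scanned that day. Mrc1 had levels of 0.20, -0.59, -0.11 and 0.03 in liver ADSC 7 to 10, against -0.07, 0.46, 0.01 and 0.59 in liver PBS 11 to 14. The groups overlapped (-0.37 ± 0.21, limma, adjusted p = 0.998), and the day 2 difference was 0.03. Clec10a ranged from -1.78 to -1.17 with ADSC and from -1.44 to -0.93 with PBS (-0.20 ± 0.19, adjusted p = 0.998).

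Arg1 had levels of 5.20, 5.78, 5.66 and 5.88 in liver ADSC 7 to 10, against 6.00, 4.60, 5.92 and 5.50 in liver PBS 11 to 14. The PBS arrays spanned the ADSC arrays (0.13 ± 0.31, limma, adjusted p = 0.998), and without PBS 12 the sign turned (-0.18). Ccl17 had levels of -3.37, -3.33, -3.98 and -1.06 in liver ADSC 7 to 10, against -1.10, -0.69, -3.68 and -0.89 in liver PBS 11 to 14. In each group the arrays split into high and low, with 1 high array under ADSC and 3 under PBS, and the lowest array of each group was not well above background (-1.34 ± 0.81, limma, adjusted p = 0.998). On scan day 2 the Ccl17 difference was 0.01. Ccl24 ranged from -2.46 to -1.14 with ADSC and from -2.39 to -0.51 with PBS (-0.28 ± 0.43, adjusted p = 0.998). None of the 15 other lists had a passing gene in liver. The medians of the lists nearest to the members were 0.01 over 14 genes of the IL-4 and IL-13 pathway, -0.16 over 14 other genes of alternative activation and -0.19 over 12 genes of classical activation. Macrophage and monocyte markers averaged 1.59 to 2.23 with ADSC and 1.69 to 2.55 with PBS in liver.

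Whether the ADSC effect differed between inflammatory cells and liver was tested as a contrast in 1 fit of all 16 arrays. None of the 9 members tested passed limma's test, and none had an unadjusted p under 0.05, in a contrast where 0.0316% of 22139 genes passed and 10.1% had an unadjusted p under 0.05. For Mrc1 the effect in inflammatory cells minus that in liver was -0.79 ± 0.40 (limma, adjusted p = 0.527), with a 95% interval of -1.65 to 0.07. For Retnla it was 1.54 ± 1.04 (adjusted p = 0.636), from liver levels that were not above background. For Il13ra1 it was -1.44 ± 0.33 (adjusted p = 0.125), with a liver effect of -0.06 ± 0.17. None of the genes of the 15 lists passed in this contrast.

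Inflammatory cells and liver themselves were then compared, 8 arrays against 8, to describe where each member is expressed. The 5 members well above background on all 16 arrays, Arg1, Mrc1, Clec10a, Ccl24 and Il4ra, all passed limma's test, 3 with a higher and 2 with a lower level in inflammatory cells. Of the 12823 genes measured in that way 81.4% passed, 37.8% higher and 43.7% lower, so most genes passed in this contrast and a member's call does not set it apart. In Clec10a, Ccl24 and Il4ra every inflammatory cell array lay above every liver array, as 23.6% of those genes did, and in Arg1 every one lay below, as 28.9% did. Ccl17, Mgl2, Retnla and Pdcd1lg2 were above background on only some arrays, and Mgl2, Retnla and Pdcd1lg2 entered the test only because of the inflammatory cell arrays, where they were high. These 4 also passed among the 22139 genes above background on at least 4 arrays, of which 84.3% passed, and no count is drawn from them. The calls of the 5 members above background on all 16 arrays, and their directions, held on leaving out each array in turn.

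**Figure D4:**
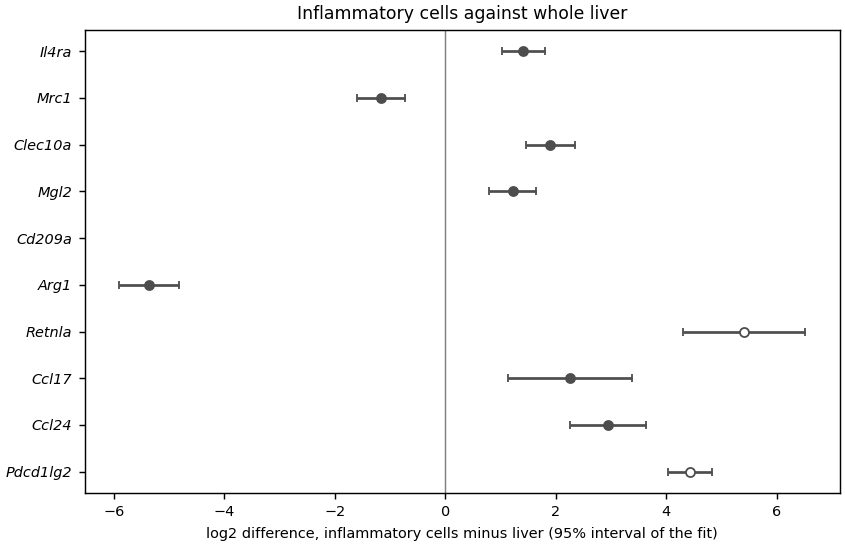
Log2 difference, inflammatory cells minus liver (x axis), of each member tested, with the 95% interval of the fit over 8 arrays against 8. Open points mark members at background on all 8 liver arrays, for which the fitted value is no bound. Arg1 and Mrc1 lie below 0 and the other 7 above it.

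Arg1 averaged 0.20 ± 0.59 in inflammatory cells and 5.57 ± 0.47 in liver (SD, n = 8 each), 41.4-fold lower in inflammatory cells (-5.37 ± 0.25, limma, adjusted p = 1.77e-11). Within the 5 slides the difference lay between -6.99 and -4.45. Of 6 genes of the urea cycle and arginine metabolism above background on every array, 4 were lower and 1 higher, with a median of -2.44. Genes of that list that were lower included the urea cycle enzymes Ass1 (-4.01) and Asl (-3.86) and the mitochondrial carrier Slc25a13 (-4.01). Arg2 is not among the 6, because it was well above background on only 2 of 4 liver ADSC arrays. It was 18.3-fold higher in inflammatory cells (4.19 ± 0.42, limma, adjusted p = 1.18e-07), partly against background values. That value averages over treatments between which Arg2 differed 3.82-fold in inflammatory cells. All 8 hepatocyte markers above background on every array were lower, with a median of -5.59. Mrc1 averaged -1.10 ± 0.76 in inflammatory cells and 0.07 ± 0.36 in liver (SD, n = 8 each), 2.24-fold lower (-1.17 ± 0.20, limma, adjusted p = 5.45e-05), although the arrays overlapped. Of 11 sinusoidal endothelium markers counted in the same way, 9 were lower and 1 higher (median -2.08). Of 8 Kupffer cell markers, 2 were lower and 4 higher (median 0.52), and of 12 macrophage and monocyte markers, 3 were lower and 5 higher (median -0.03). Which cells supplied the Mrc1 signal of either sample type was not tested.

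Il4ra was 2.66-fold higher in inflammatory cells (2.99 ± 0.47, against 1.58 ± 0.21 in liver; SD, n = 8 each; limma, adjusted p = 2.43e-06). Clec10a was 3.74-fold higher (0.61 ± 0.58, against -1.29 ± 0.28; adjusted p = 3.49e-07). Mgl2, above background on 8 inflammatory cell arrays and 2 liver arrays, was 2.34-fold higher (-2.34 ± 0.49, against -3.56 ± 0.25; adjusted p = 3.01e-05). In Il4ra and Clec10a no array of one sample type crossed into the other. In Mgl2 none did either, but its lowest inflammatory cell array (-3.12) lay close to its highest liver array (-3.27). Most Mgl2 liver values were at background, so its fold and p set a signal largely against background values. Its log2 difference lay between 0.21 and 1.56 over the alternatives.

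Ccl24 was 7.70-fold higher in inflammatory cells (1.21 ± 0.83, against -1.73 ± 0.67 in liver; SD, n = 8 each; limma, adjusted p = 3.2e-07). Ccl17 was 4.79-fold higher (0.00 ± 0.93, against -2.26 ± 1.44; adjusted p = 0.000888), with overlap between sample types. The liver arrays carrying the high Ccl17 levels were ADSC 10 and PBS 11, 12 and 14. Retnla was well above background on 7 of 8 inflammatory cell arrays and 0 of 8 liver arrays, and was at least 10.8-fold higher (-0.28 ± 1.86, against a measured -5.70 ± 0.50; adjusted p = 6.62e-08). Pdcd1lg2, above background on 8 and 0 arrays, was at least 4.72-fold higher (-1.49 ± 0.49, against a measured -5.91 ± 0.15; adjusted p = 7.12e-12). Both p-values set a signal against background values. Such a bound sets the inflammatory cell mean against the dimmest signal that counted as well above background on each liver array. Over the alternatives apart from leaving out 1 array, the fitted log2 difference lay between 2.26 and 5.74 for Retnla. For Pdcd1lg2 it lay between 1.21 and 4.76, so both bounds hold for the main processing only. For Cd209a both sample types were at background but for 1 array.

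Il4 and Il13, made by type 2 lymphoid cells, basophils and mast cells, were well above background on all 8 inflammatory cell arrays and on 0 of 8 liver arrays, with Il4 at least 4.72-fold (limma, adjusted p = 3.41e-12) and Il13 at least 2.33-fold higher in inflammatory cells (adjusted p = 8.42e-07). Both entered the test only through inflammatory cell arrays, as Retnla and Pdcd1lg2 did. Of the 14 genes of this pathway that all 16 arrays measured above background, 9 had a higher and 2 a lower level in inflammatory cells (median 1.34), and Il13ra1 was one of the lower ones (-1.06 ± 0.16, adjusted p = 1.58e-05). That Il13ra1 value averages over treatments. With PBS it averaged 0.42 in inflammatory cells and 0.76 in liver, and with ADSC -1.08 and 0.70. Counted as the pathway genes were, 7 of 14 other genes of alternative activation were higher and 5 lower (median 0.35). Among them Chil4 was 15.5-fold higher and Cd36 was lower (-1.75 ± 0.15, limma, adjusted p = 1.36e-08). The Chil4 value averages over treatments between which it differed 16.0-fold in inflammatory cells. The part of neutrophils in it was not tested. Of 10 classical activation genes, 7 were higher and 2 lower (median 2.56). The counts of higher genes were 6 of 8 for dendritic cells, 1 of 2 for eosinophils, basophils, mast cells and type 2 lymphoid cells, 6 of 7 for neutrophils, 4 of 4 for B cells and 3 of 3 for T cells. Both of 2 exocrine pancreas genes were higher too (median 3.85), and of 4 adipose and mesenchymal genes 1 was higher and 2 lower.

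For the 3 members with the widest range over the 16 arrays, the genes with the most similar profile were found by the mean absolute difference between log2 levels, each centred on its own mean. This is a description over arrays that share sample type and treatment. For Retnla the nearest genes were Mcpt4 (mean absolute difference 0.49) and Cma1 (0.59), both chymases of connective tissue mast cells, against a median of 2.85 over all genes. All 3 were at background on every liver array, so over the liver arrays the likeness is one of background values. Like Retnla, Mcpt4 was low on PBS 12 (-2.85) and PBS 14 (-2.47) and higher on PBS 11 (-0.68) and PBS 13 (-0.14), and the ADSC arrays lay between 0.03 and 1.20. Mcpt4 averaged 0.69 ± 0.50 with ADSC and -1.54 ± 1.33 with PBS (SD, n = 4 each; 2.23 ± 0.56, limma, adjusted p = 0.0927) and Cma1 1.47 ± 0.45 and -0.41 ± 1.28 (1.88 ± 0.54, adjusted p = 0.133), so neither passed. Cpa3, a protease that mast cells share with basophils and a gene chosen after its values were seen, averaged 0.48 ± 0.41 with ADSC and 0.38 ± 0.82 with PBS. For Arg1 the nearest genes were Mst1 (0.25) and Sec14l2 (0.25), which liver also expresses strongly, against a median of 2.64. For Pdcd1lg2 they were Fhl3 (0.21) and Serpinb2 (0.21), against 2.27, and neither was above background on any liver array.

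**Figure D5:**
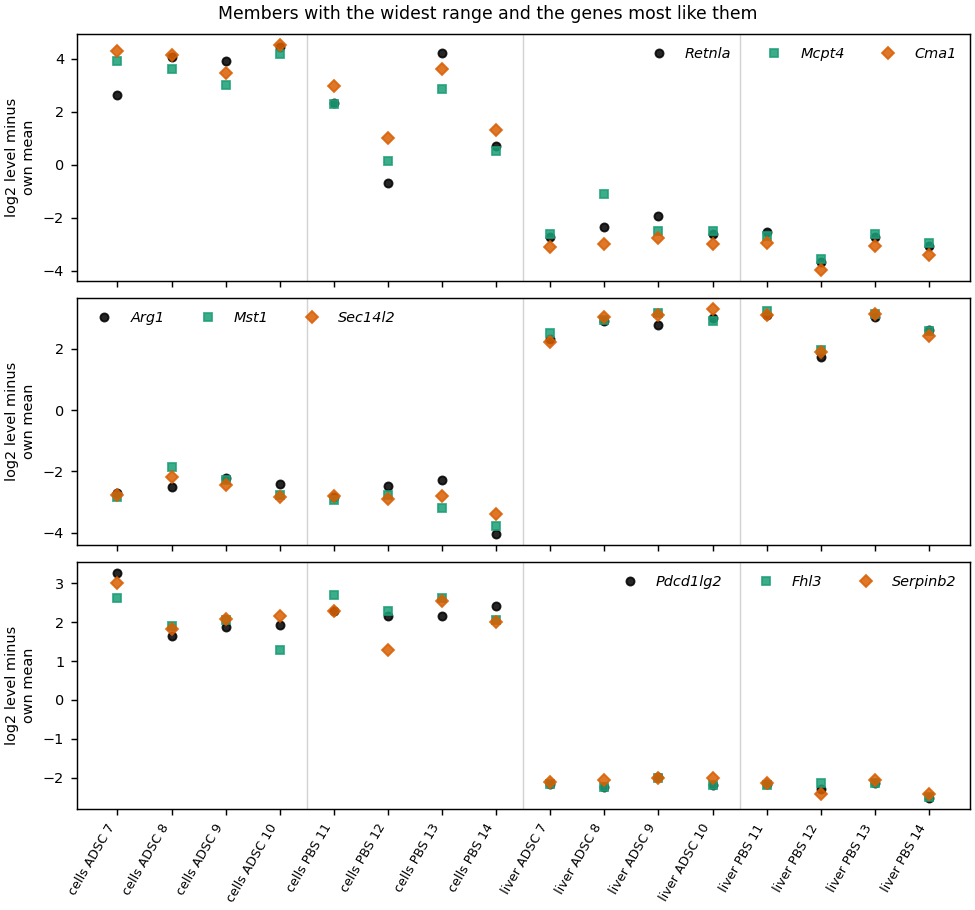
Log2 level minus the gene's own mean over the 16 arrays (y axis) on each array (x axis), for Retnla, Arg1 and Pdcd1lg2 (black circles) and the 2 genes nearest to each (green squares and orange diamonds). Retnla, Mcpt4 and Cma1 are together low on inflammatory cells PBS 12 and 14, while Arg1 and Pdcd1lg2 and their nearest genes separate inflammatory cells from liver.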

How the data were processed

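Total RNA of each sample was labelled with Cy3 and read on a 1-colour Agilent array. Per the file headers, the deposited processed signal is an intensity that Agilent Feature Extraction 10.5.1.1 made by subtracting background within the array, with no normalization between arrays. The deposited value table, also linear intensity, differed from the scanner files by a largest relative difference of 0, so it is neither centred nor transformed, and its column medians lay between 32.2 and 97.4. From the 43379 non-control spots, outlying spots (71 to 124 per array) were left out, and 0 were saturated. The log2 signal minus each array's 75th percentile was averaged over spots of a probe, and 23374 of 41174 probes were named through the GRCm38.p6 annotation. A gene entered a fit if at least 4 of its arrays marked the probe well above background. Tests used limma 3.58.1 in R 4.3.3 (lmFit, eBayes, Benjamini-Hochberg over all genes tested, threshold 0.05), and the method recovered known changes in simulated data. ADSC was set against PBS in 8 arrays per sample type. The contrast of the effects and inflammatory cells against liver used all 16. A bound on a fold replaced the fitted fold where no array of a group was above background. The members and the 15 other lists were chosen with earlier results of these data known. All members were named. Of the other lists, passing genes were named by smallest p, up to 4 a list, for the lists that bear on the members. Il4, Il13, Stat6, Nos2 and, for sample types, Arg2, Chil4 and Il13ra1 were named for their role after their values were seen. Cd36 was named as a lower gene beside Chil4. The numbers 7 to 10 (ADSC) and 11 to 14 (PBS) recur in both sample types. Over the 8 numbers, deviations from group means correlated between -0.06 and 0.17 across sample types, 1 of them over 0.1, so the numbers were not taken to pair samples. Alternatives were normexp correction (offset 50) on the median spot signal, quantile normalization, another percentile, other dim-probe filters, the mean of probes, the second probe (chosen after seeing the data), the value table, slide and scan day terms, a replicate block, leaving out arrays, and fitting all 16 arrays. The number of arrays limits precision.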

Additional observations from a re-analysis of the deposited data

Results flagged for a closer look

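In the 4 liver PBS arrays, the Ccl17 level of array 13 was -3.68, while the other 3 lay between -1.10 and -0.69. The gap to the nearest array was 0.863 of the group's range, above Dixon's 95% critical value for 4 samples, and the probe was not well above background on that array. It was the only 1 of 40 groups of member values to be set apart in this way, and chance does so in about 5% of groups.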

How the results depend on the processing

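Over 795 values of members under alternatives, 748 kept their direction and their side of the threshold, 45 changed sign, all of them in comparisons that had not passed, and 2, both of Mrc1, came to pass. Between inflammatory cells and liver, the calls of the 5 members above background on all 16 arrays held under every alternative. With only probes above background on every array, 5 members were tested and all 5 passed, among 10439 passing genes. In inflammatory cells, the count of genes passing between ADSC and PBS was 239, and it was 140 (22 higher, 118 lower) with the percentile taken over probes detected on all arrays, which moved the median of all genes to 0.15, 110 with no filter, 155 with scan day as a term, 817 (237 higher, 580 lower) with slide as a random block and 914 (239 higher, 675 lower) with all 16 arrays in the fit. It was 0 with slide as a fixed block and without the 3 pancreas-rich arrays, where 5371 and 4601 genes had an unadjusted p under 0.05. Leaving out 1 array gave 67 (without ADSC 9) to 506 (without ADSC 7), with 76 without PBS 12, 86 without ADSC 10 and 137 without ADSC 8. The number of members passing there was 1, Mrc1, with slide as a random block and with all 16 arrays in the fit. In liver, 1 gene passed with the mean of the gene's probes and 9 with all 16 arrays. For the difference between the ADSC effects, 7 genes passed, against 32 with normexp, 65 with normexp and quantile, 1 with the other percentile, 64 with every array above background, 0 with no filter, slide as a fixed block or scan day, and 0 to 47 on leaving out 1 array. With the replicate number as a block, 0 genes and 0 members passed, although only 3 of 8 arrays correlated best with the array of their own number. None of those 5 members lost its call between sample types. The cause of these shifts was not tested.

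Signs turned as follows in inflammatory cells. Mgl2 was 0.25 with normexp, 0.0813 with the other percentile and 0.31 without the pancreas-rich arrays, Pdcd1lg2 was 0.15, 0.037, 0.22, 0.0484 and 0.0266 with normexp, the other percentile, slide fixed, slide random and scan day, Il4ra was -0.12, -0.0368 and -0.16 with normexp, slide fixed and no pancreas-rich arrays, and Ccl17 was 0.38 without those arrays. In liver, slide as a fixed block gave Arg1 -0.73, Mrc1 0.18, Clec10a 0.18 and Ccl17 0.32. These are differences between 1 ADSC and 1 PBS array, since only slide 2 held both treatments. Slide as a random block gave Arg1 -0.0218. Scan day gave Arg1 -0.49, Mrc1 0.0316, Ccl17 0.00858 and Ccl24 0.0454, from day 2 alone, with 2 arrays against 1. In the difference between effects, Mgl2 was 0.0545 with normexp and 0.18 without the pancreas-rich arrays, slide as a fixed block gave Arg1 -0.28, Retnla -0.29, Ccl17 -0.0738 and Pdcd1lg2 0.22, and scan day gave Arg1 -0.14, Ccl17 -0.0541 and Pdcd1lg2 0.0767. Leaving out 1 array ranged from -0.31 to 0.19 for Mgl2, -0.56 to 0.19 for Ccl17, -0.45 to 0.0938 for Pdcd1lg2 and -0.20 to 0.26 for Il4ra in inflammatory cells, from -0.18 to 0.29 for Arg1 and -0.55 to 0.0772 for Ccl24 in liver, and from -0.0473 to 0.63 for Arg1 and -0.44 to 0.0606 for Mgl2 in the difference. Signals at background limit Retnla, Pdcd1lg2, Mgl2 and Cd209a in liver.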
